A study of Mus musculus with 8 samples.

Results

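Of the 54752 genes listed for the fetal mouse brain, 8 were followed here because they encode neurotrophins, GDNF or proteins that bind them. The rule for choosing them uses their names and no measured value, but the set was drawn up with earlier results of these data known. They are the ligands *Bdnf*, *Ntf3* and *Gdnf*, the tyrosine kinase receptors *Ntrk2* (TrkB) and *Ntrk3* (TrkC), the shared neurotrophin receptor *Ngfr* (p75NTR), the sorting receptor *Sort1* (sortilin) and the GDNF co-receptor *Gfra1*. All 8 passed the filter on low counts that 17865 genes passed. The study asked how chronic stress of the pregnant dam changes transcription in the fetal brain. RNA of 8 brains of wild type C57BL/6 fetuses (C57BL/6Slac in the study's methods) at E15.5 was sequenced. The control group held 4 brains (F36 and F37, female, and M30 and M31, male), and the stress group held 4 others (F34 and F35, female, and M28 and M29, male). In the stress group, the dam went through chronic unpredictable mild stress (CUMS), a changing daily program of fox odour, restraint in a tube, wet bedding and light overnight, begun in early gestation and ended the day before collection. The dam of the control group was not exposed, and no transgene, deletion or drug was used in either group. The study's sample list places the 4 control brains in 1 litter and the 4 stressed brains in another. Condition therefore cannot be told apart from litter, and p-values measure the spread between littermates.

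Neurotrophins are secreted growth factors that are made as longer precursors and cut to their mature form. Mature BDNF acts through TrkB and mature NT-3, the product of *Ntf3*, mainly through TrkC, and both turn on MAPK, PI3K and PLC signalling that serves survival, outgrowth and synapse formation. The precursors bind p75NTR together with sortilin instead, a pair known for signalling cell death. GDNF first binds GFRα1, which sits on the outer membrane, and the pair then engages the receptor tyrosine kinase RET or the adhesion molecule NCAM. In the embryonic brain, TrkB and TrkC are abundant in neurons and their progenitors, while the ligands are made in small amounts by restricted groups of cells.

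Promoter sequence was found for 6 of the 8 genes in the RefSeq promoter table (GRCm38.p6, the same assembly as mm10), in 14 windows of 250 bases that end just before a transcript start, 7 of them at *Bdnf*, which starts from many alternative first exons. Windows are shown for *Ntrk2*, the gene of the set with the smallest adjusted p, and for the 2 ligand starts with a match to the short core of the cAMP response element, the site of the activity-regulated factor CREB. All 3 lie outside every exon annotated in GENCODE vM21. Capitals mark matches to CGTCA on either strand, and the windows are at chr13:58806319-58806568 (plus strand) for *Ntrk2*, chr2:109692186-109692435 (plus strand) for *Bdnf* and chr15:7809798-7810047 (plus strand) for *Gdnf*.
Ntrk2: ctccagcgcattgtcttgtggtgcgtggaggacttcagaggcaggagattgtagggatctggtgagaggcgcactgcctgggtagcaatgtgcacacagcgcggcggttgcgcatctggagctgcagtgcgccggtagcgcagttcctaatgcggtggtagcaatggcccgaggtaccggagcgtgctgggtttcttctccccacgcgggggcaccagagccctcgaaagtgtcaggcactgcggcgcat
Bdnf: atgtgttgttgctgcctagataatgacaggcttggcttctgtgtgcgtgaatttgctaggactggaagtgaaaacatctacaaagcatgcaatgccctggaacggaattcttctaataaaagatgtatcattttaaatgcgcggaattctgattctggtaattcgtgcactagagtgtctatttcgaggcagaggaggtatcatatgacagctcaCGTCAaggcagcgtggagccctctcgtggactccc
Gdnf: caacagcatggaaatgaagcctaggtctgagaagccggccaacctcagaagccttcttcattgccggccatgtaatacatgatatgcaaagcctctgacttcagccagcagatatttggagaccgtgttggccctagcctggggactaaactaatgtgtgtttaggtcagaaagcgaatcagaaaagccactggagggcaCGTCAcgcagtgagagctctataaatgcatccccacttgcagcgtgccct
The match lay 35 bases before the start at *Bdnf* and 50 bases before it at *Gdnf*. The letters CGTCA were present in 2 of the 14 windows, and in 17.77% of all 32851 windows of the table. The full element TGACGTCA was in 0 of the 14 windows and in 1.546% of all windows. The half-site of the glucocorticoid receptor, AGAACA, was in 3 of the 14 windows, all at other *Bdnf* starts, 237, 240 and 179 bases before them, and in 16.08% of all windows. The E-box CACGTG was in 1 window, 231 bases before a start of *Ntf3*, and in 6.021% of all windows. The CGTCA search also counts every full TGACGTCA element. The shown *Ntrk2* window and the windows at *Ngfr* and *Gfra1* held none of these letters. A match of letters is a description of the window and was not tested for binding.

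The total was between 25320109 and 29105710 counts per brain, in files that hold the number of read pairs assigned to the exons of each gene. Expression is given as CPM, the count of a gene scaled to a common library total after TMM scaling, and Log2FC is stress vs. control from edgeR's quasi-likelihood test, fitted with sex beside condition and given with its standard error (SE). A gene was called at a Benjamini-Hochberg adjusted p under 0.05 over all genes tested. By this rule 13.8% of the genes tested were called, 6.49% higher and 7.27% lower in stress, the median Log2FC of all genes tested was 0.0015, and the groups did not overlap in 16.4% of them. Among the 8 genes, 3 were called, *Ntrk2* and *Ntrk3* as lower and *Gfra1* as higher, and these 3 were also those whose groups did not overlap. With so few genes, a share of 37.5% cannot be read against the background as a property of the set. Leaving out stress M29 left 1 of the 8 called, and 1590 genes in place of 2458 over all genes tested. In RNA of mixed tissue, fewer cells of a type and less RNA per cell cannot be told apart. The labels give the tissue as brain. The study's methods state that the whole fetal brain was taken, with forebrain, midbrain and hindbrain. Its sample list does not say clearly whether the whole brain or a part of it was used for these 8 libraries. Transcription factors of the forebrain, midbrain and hindbrain were present in every brain. For the forebrain their summed level was 1291 to 1337 CPM in control and 1356 to 1402 CPM in stress, which did not overlap. For the midbrain it was 79.4 to 91.5 CPM in control and 96.2 to 105.6 CPM in stress, again without overlap. For the hindbrain the groups overlapped, at 32.8 to 43.1 CPM in control and 26.1 to 45.4 CPM in stress. The hindbrain factor *Hoxb4*, named after its values were seen, ranged from 0.941 CPM in stress M28 to 6.87 CPM in stress F35. The part of the brain regions in the values of the 8 genes was not tested.

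**Figure D1:**
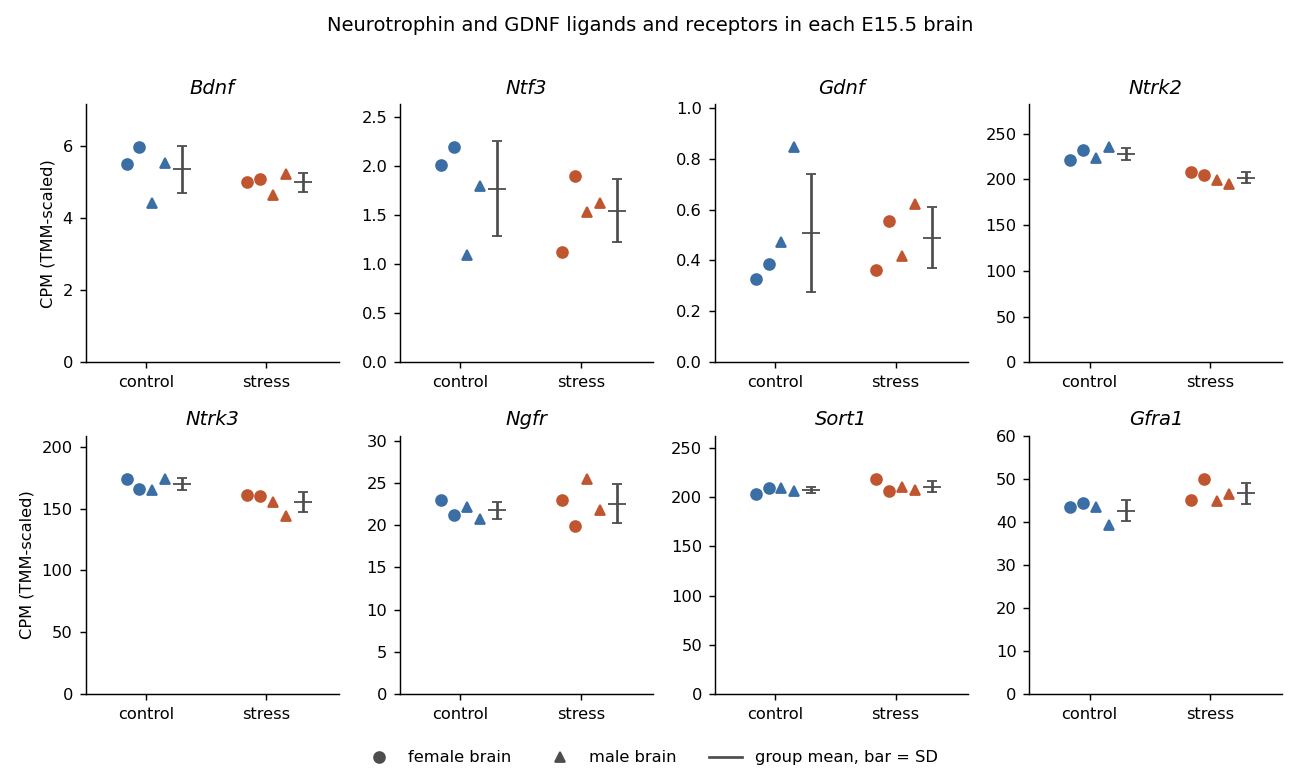
CPM of the 8 genes (vertical axes, each from 0) in the 4 control and 4 stressed brains, with circles for females, triangles for males and the group mean ± SD beside the points. The stressed brains lie below all control brains for *Ntrk2* and *Ntrk3* and above them for *Gfra1*, and the groups overlap for the other 5 genes.

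Per length of exon, the receptors were far more abundant than the ligands. In control brains the mean FPKM (CPM per kilobase of merged exon, n = 4, ± SD) was 27.4 ± 0.408 for *Sort1*, the highest of the 8. *Ntrk2* followed with 11.8 ± 0.354, *Gfra1* with 7.80 ± 0.432, *Ngfr* with 6.32 ± 0.292 and *Ntrk3* with 5.63 ± 0.163. Among the ligands, the FPKM was 1.03 ± 0.280 for *Ntf3*, 0.861 ± 0.105 for *Bdnf* and 0.138 ± 0.0630 for *Gdnf*. The ranges of neighbours in this order did not overlap in the control brains, except those of *Ntf3* and *Bdnf*. *Sort1* was 2.32 times the level of *Ntrk2*, and *Ntrk3* was 5.46 times that of *Ntf3*. The order depends on the length used, because the merged exons of *Ntrk2*, *Ntrk3* and *Bdnf* are far longer than their longest coding transcripts. With the longest coding transcript as the length, an alternative chosen after seeing the data, *Ntrk3* (8.61) stood above *Ngfr* (6.32) and *Bdnf* (1.25) above *Ntf3* (1.19), and *Ntrk2* (26.1) came close to *Sort1* (30.3).

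**Figure D2:**
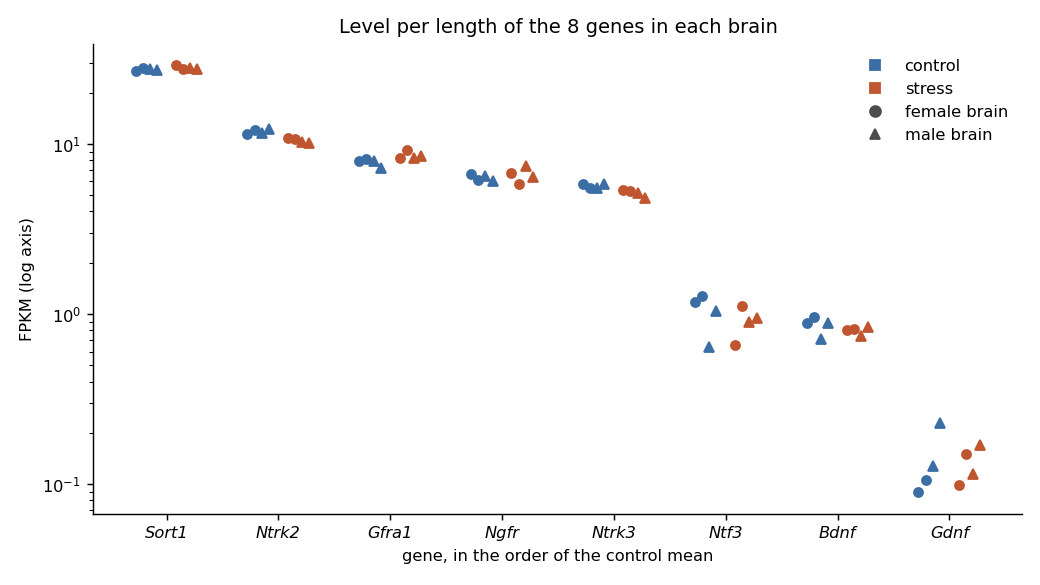
FPKM of the 8 genes in each brain on a log axis, ordered by the mean of the control brains, with blue for control, orange for stress, circles for females and triangles for males. The 5 receptors lie above the 3 ligands in all 8 brains, and *Ntf3* and *Bdnf* overlap.

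None of the 3 ligands was called by edgeR or DESeq2, and 0 of them reached an unadjusted p under 0.05. *Bdnf* (ENSMUSG00000048482.14, mm10 chr2:109674700-109727007) encodes the main ligand of TrkB. Its level was 5.50, 5.96, 4.43 and 5.52 CPM in control F36, F37, M30 and M31, and 5.0, 5.10, 4.64 and 5.22 CPM in stress F34, F35, M28 and M29. The stressed brains lay inside the control range, with a Log2FC of -0.10 (SE 0.10, 95% interval -0.30 to 0.10, edgeR adjusted p = 0.565). The interval includes 0 and also the size of the Trk receptor differences below, and the depth was 122 to 169 counts per brain. Of the exon bases of *Bdnf*, 14.4% are shared with the antisense gene *Gm45346*, and the counting was not set to use strand, so read pairs over that stretch could not be assigned to either gene.

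*Ntf3* (ENSMUSG00000049107.13, chr6:126101412-126166910), the gene of NT-3, had 2.0, 2.19, 1.09 and 1.79 CPM in the control brains, and 1.12, 1.9, 1.53 and 1.62 CPM in the stressed brains, in the same order of animals. Control M30 and stress F34 were low, and the groups overlapped. The Log2FC was -0.19 (SE 0.19, edgeR adjusted p = 0.575) on 30 to 62 counts, and without stress F34 it was 0.009. *Gdnf* (ENSMUSG00000022144.4, chr15:7810846-7837575), the gene of the ligand of GFRα1, had 0.328, 0.388, 0.472 and 0.844 CPM in the control brains, and 0.362, 0.553, 0.418 and 0.622 CPM in the stressed brains. Control M31 was the highest of all 8, and the groups overlapped. On 9 to 24 counts per brain, its Log2FC of -0.06 (SE 0.30, 95% interval -0.68 to 0.55, edgeR adjusted p = 0.925) was not distinguishable from 0, nor from a difference as large as that of *Ntrk2* below. The sign of the *Gdnf* value turned without control M31 (0.25) and without stress M28 (0.12).

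Both Trk receptors were lower in the stressed brains, and *Ntrk2* kept its call in every alternative. *Ntrk2* (ENSMUSG00000055254.15, chr13:58806569-59133970) encodes TrkB, the receptor of BDNF. Its level was 221, 233, 223 and 235 CPM in control F36, F37, M30 and M31, and 208, 205, 199 and 195 CPM in stress F34, F35, M28 and M29. All 4 stressed brains were below all 4 control brains. The mean was 228 ± 6.84 CPM in control and 202 ± 6.00 CPM in stress (SD, n = 4 each), a difference of -11.6%, and the Log2FC was -0.18 (SE 0.029, edgeR adjusted p = 0.000168). It was called with each brain left out in turn, at -0.20 to -0.15. This is about the size usual among the genes called, whose median absolute Log2FC was 0.18.

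*Ntrk3* (ENSMUSG00000059146.12, chr7:78175959-78738012) encodes TrkC, the receptor of NT-3. It had 174, 166, 165 and 174 CPM in the control brains, and 161, 160, 156 and 144 CPM in the stressed brains. The groups did not overlap, and stress M29 was the lowest of all brains. The mean was 170 ± 4.91 CPM in control and 155 ± 7.99 CPM in stress (SD, n = 4 each), with a Log2FC of -0.13 (SE 0.032, edgeR adjusted p = 0.00683). Without stress M29 the Log2FC was -0.10 and the call was lost (edgeR adjusted p = 0.0543), while it was kept without any of the other 7 brains.

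The count files give 1 value per gene, so the full-length and the truncated forms of TrkB and TrkC, which lack the kinase, were not separated. The annotation lists 7 coding transcripts of *Ntrk2* and 6 of *Ntrk3*. The longest exact run that the transcripts of *Ntrk2* and *Ntrk3* share is 23 bases, against a read length of 100 bases. The longest run shared by any pair of the 8 genes was 27 bases, between *Ntrk2* and *Ngfr*.

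*Ngfr* and *Sort1*, which together bind the precursors, were not called. *Ngfr* (ENSMUSG00000000120.6, chr11:95568818-95587735), the gene of p75NTR, had 23.0, 21.2, 22.1 and 20.8 CPM in the control brains, and 23.0, 19.9, 25.5 and 21.8 CPM in the stressed brains. The stressed brains held both the lowest and the highest value. The Log2FC was 0.05 (SE 0.060, 95% interval -0.07 to 0.18, edgeR adjusted p = 0.627), and without stress M28 it was -0.013. Stress M28 had the highest *Ngfr* and the highest sum of the markers of sensory ganglion and Schwann cells (139.6 CPM against 105.2 to 118.8). It also had the highest sum of the markers of meninges and mesenchyme (72.5 CPM against 24.2 to 40.6). Within the latter, the collagen genes *Col1a2* and *Col3a1*, named after their values were seen, stood at 21.8 and 21.3 CPM in M28. The transcription factor genes *Foxc1* and *Twist1*, named likewise, stood at 3.31 and 0.488 CPM there. In the control brains they stood at 3.35 to 3.94 and 0.423 to 0.617 CPM. Of 10 sensory ganglion and Schwann cell markers, 2 were called as higher in stress by edgeR and 0 by DESeq2, and of 8 tested markers of meninges and mesenchyme, 3 by edgeR and 0 by DESeq2. In M28 the sensory neuron genes *Prph* and *Avil*, named after their values were seen, stood at 23.4 and 5.72 CPM, above the other 7 brains. Of the same markers, *Pou4f1* and *Foxd3*, also named after their values were seen, were not highest in M28. *Pou4f1* stood at 29.4 CPM there against 35.1 CPM in stress F35, and *Foxd3* at 1.12 CPM against 1.31 CPM in control M30. The part of these cells in the *Ngfr* values was not tested. *Sort1* (ENSMUSG00000068747.14, chr3:108284082-108361511), the gene of sortilin, had 203, 210, 209 and 206 CPM in the control brains, and 219, 207, 210 and 207 CPM in the stressed brains. Stress F34 and M28 lay above all control brains, M28 only just, and the groups overlapped. Its Log2FC of 0.02 (SE 0.028, 95% interval -0.03 to 0.08, edgeR adjusted p = 0.624) had the narrowest interval of the 8 genes, with an upper bound below the size of the *Ntrk2* difference. Of the *Sort1* exon bases, 4.47% are shared with the antisense gene *Gm12523*.

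In the GDNF receptor complex, the co-receptor and the kinase went in opposite directions. *Gfra1* (ENSMUSG00000025089.15, chr19:58235604-58455909) had 43.5, 44.6, 43.5 and 39.2 CPM in the control brains, and 45.2, 50.1, 44.9 and 46.5 CPM in the stressed brains. The groups did not overlap, but stress M28 lay only just above control F37, and stress F35 was the highest. The mean was 42.7 ± 2.37 CPM in control and 46.7 ± 2.37 CPM in stress (SD, n = 4 each), a difference of 9.27%, and the Log2FC was 0.13 (SE 0.042, edgeR adjusted p = 0.0426). This call was close to the threshold and was lost with DESeq2 (adjusted p = 0.0964), without the sex covariate (edgeR adjusted p = 0.0855) and with 6 of the 8 brains left out in turn, at adjusted p up to 0.17. Of the *Gfra1* exon bases, 7.60% are shared with the antisense gene *Gm16277*. *Ret* (chr6:118151745-118197718), the gene of the kinase that GFRα1 engages, had 25.3, 19.9, 20.2 and 21.9 CPM in the control brains, and 18.3, 17.9, 18.5 and 17.2 CPM in the stressed brains. All stressed brains were below all control brains, and control F36 stood highest. *Ret* fell by 0.28 on the log2 scale (SE 0.062, edgeR adjusted p = 0.00317), and it was called with each brain left out in turn.

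In the wider families, 1 sortilin relative was called as lower beside the Trk receptors and *Ret*. Of the 14 genes of the neurotrophin and sortilin families, 12 were tested, 0 were higher and 3 lower (25.0% called), with a median Log2FC of 0.006. Beside *Ntrk2* and *Ntrk3*, *Sorcs2*, a sortilin relative that binds the BDNF precursor, had a Log2FC of -0.12 (SE 0.041, edgeR adjusted p = 0.0473), which was lost with DESeq2 (adjusted p = 0.101) and with 6 of the 8 brains left out in turn. Its relatives were not called, with a Log2FC of 0.07 for *Sorl1*, 0.06 for *Sorcs3* and -0.01 for *Sorcs1*, and *Nradd*, which resembles p75NTR, stood at 0.07. The ligand gene *Ntf5*, with 0 to 2 counts, was too low to test. Of the 12 genes of the GDNF family, 8 were tested, 1 was higher and 1 lower (25.0% called), with a median of -0.10. *Gfra2*, the co-receptor of neurturin, had 23.7 ± 1.30 CPM in control and 21.4 ± 1.01 CPM in stress (SD, n = 4 each) and a Log2FC of -0.15 (SE 0.050), and was not called (edgeR adjusted p = 0.0517). *Gfra4* stood at 0.10, *Ncam1*, the other partner of GFRα1, at -0.05, and the ligand genes *Nrtn* and *Pspn* at -0.46 and -0.14, none of them called. *Artn* (4 to 14 counts), *Gfra3* (4 to 18), *Gdf15* (0 to 5) and *Gfral* (0 to 2) were not tested.

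**Figure D3:**
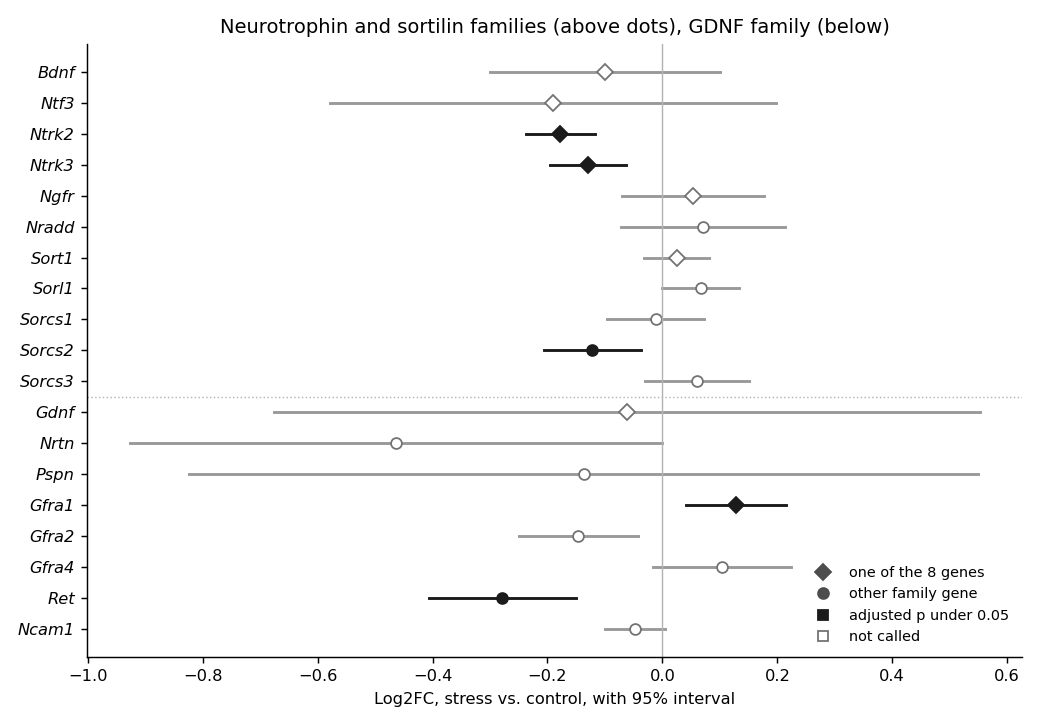
Log2FC, stress vs. control, with its 95% interval for 19 tested genes of the neurotrophin and sortilin families (above the dotted line) and the GDNF family (below it). Filled symbols are called and diamonds are the 8 genes, with *Ntrk2*, *Ntrk3*, *Sorcs2* and *Ret* to the left of 0 and *Gfra1* to the right, and the widest intervals belong to the ligands.

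The sexes were fitted together and then apart. In the female brains alone (2 against 2), where 3.91% of genes tested were called, 0 of the 8 were called by edgeR, with *Ntrk2* and *Ntf3*, 2 in all, at an unadjusted p under 0.05, and in the male brains alone, where 8.49% were called, 2 were. *Ntrk2* had a Log2FC of -0.14 (SE 0.041, edgeR adjusted p = 0.0551) in females and -0.22 (SE 0.037, edgeR adjusted p = 0.000210) in males. *Ntrk3* had -0.08 (SE 0.042, edgeR adjusted p = 0.316) in females and -0.18 (SE 0.041, edgeR adjusted p = 0.00480) in males. The difference between the sexes was itself tested as an interaction and was not called, at -0.08 (SE 0.054, 95% interval -0.20 to 0.03, edgeR adjusted p = 0.843) for *Ntrk2* and -0.10 (SE 0.060, 95% interval -0.22 to 0.03, edgeR adjusted p = 0.838) for *Ntrk3*. *Gfra1* had 0.11 in females and 0.14 in males. Across all genes tested 0.0056% of genes, a single gene, were called for the interaction by edgeR, with 1128 at an unadjusted p under 0.05, and 0 of the 8 were called by edgeR or DESeq2 or reached an unadjusted p under 0.05. Between males and females 0.0896% of genes were called and 0 of the 8, again by both tools and with 0 at an unadjusted p under 0.05. *Gdnf* had the widest sex value, 0.54 higher in males on the log2 scale (SE 0.30, edgeR adjusted p = 0.872).

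**Figure D4:**
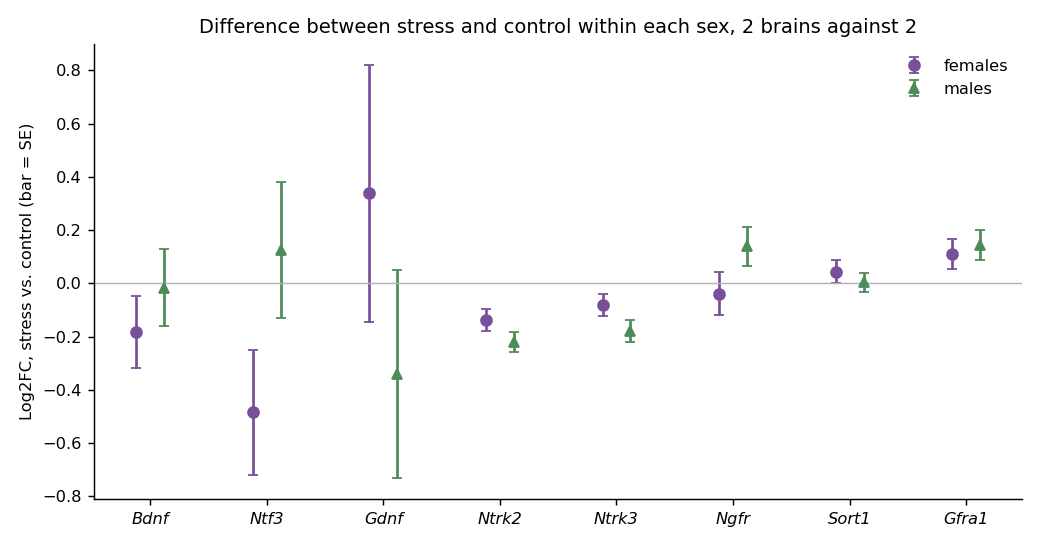
Log2FC, stress vs. control, of the 8 genes in females (circles) and males (triangles), each from 2 brains against 2, with bars of 1 SE. *Ntrk2* and *Ntrk3* lie below 0 and *Gfra1* above 0 in both sexes, and the bars of *Ntf3* and *Gdnf* are widest.

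Among the genes that cut, carry or release the precursors, 15 of 18 were tested, and 0 were higher and 4 lower (26.7% called, median Log2FC -0.06). *Furin*, the protease that cuts neurotrophin precursors inside the cell, fell by 0.18 on the log2 scale (SE 0.047, edgeR adjusted p = 0.00874). *Hap1*, which links huntingtin to vesicles that carry BDNF, went from 297 ± 3.35 CPM in control to 261 ± 8.50 CPM in stress (SD, n = 4 each), a fall of 0.19 on the log2 scale (SE 0.026, edgeR adjusted p = 3.54e-05). *Bsg* (Log2FC -0.14) was also lower and encodes a membrane glycoprotein that induces matrix proteases. *Plg*, *Mmp3* and *Mmp7* were too low to test, and *Mmp7* had 0 counts in all brains.

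Of the 51 genes of Trk receptor adaptors and of MAPK, PI3K and PLC signalling, all were tested, and 0 were higher and 6 lower (11.8% called, median -0.02). *Map2k1*, the gene of the kinase MEK1, fell by 0.22 on the log2 scale (SE 0.041, edgeR adjusted p = 0.000703). *Irs2*, an adaptor of PI3K signalling, fell by 0.12 (SE 0.037, edgeR adjusted p = 0.0327), but not by DESeq2 (adjusted p = 0.0773). The largest fall in this list was that of *Pdk1* (0.24, SE 0.043, edgeR adjusted p = 0.000400). In the mouse *Pdk1* encodes pyruvate dehydrogenase kinase and not the PI3K-dependent kinase, whose gene is *Pdpk1*. It was nevertheless kept in the counts of this list and of all lists together. *Akt1* and *Plcg1*, named after their values were seen, had a Log2FC of 0.008 and 0.03 and were not called.

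Of the 34 genes of p75NTR co-receptors, adaptors and death signalling, 1 was higher and 4 were lower (14.7% called, median -0.01). *Ncstn*, a subunit of the γ-secretase that cuts p75NTR, rose by 0.19 (SE 0.032, edgeR adjusted p = 0.000222). *Lingo1*, which forms a receptor complex with p75NTR and the Nogo receptor, fell by 0.17 (SE 0.031, edgeR adjusted p = 0.000646). *Bad*, which promotes cell death, fell by 0.24 (SE 0.049, edgeR adjusted p = 0.00154), and 25.8% of its exon bases are shared with other genes. *Omg*, a myelin ligand of the Nogo receptor, fell by 0.35 (SE 0.12, edgeR adjusted p = 0.0446), a call lost with DESeq2 (adjusted p = 0.135). *Zfp369*, named after its value was seen, was the fourth (Log2FC -0.14).

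Of the 25 genes that respond to neurotrophins or neuronal activity, 24 were tested, and 1 was higher and 4 were lower (20.8% called), with the lowest median of the 7 lists, -0.12. *Vgf*, a secreted neuropeptide precursor induced by BDNF, had 22.0, 23.6, 19.4 and 23.4 CPM in the control brains, and 16.6, 16.6, 16.7 and 15.9 CPM in the stressed brains. The groups were well apart, and it fell by 0.43 on the log2 scale (SE 0.058, edgeR adjusted p = 2.45e-05), with each brain left out in turn as well. *Fosl2* fell by 0.38 (SE 0.056, edgeR adjusted p = 5.48e-05), *Junb*, which DESeq2 did not call, by 0.39 (SE 0.13), and *Npy*, named after its value was seen, by 0.20. *Dusp4*, a phosphatase that turns MAPK off, rose by 0.11 (SE 0.031, edgeR adjusted p = 0.0142). The immediate early genes *Fos*, *Egr1*, *Arc* and *Npas4*, named after their values were seen, were not called, at -0.20, -0.17, 0.16 and -0.12.

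Of 18 regulators of *Bdnf* transcription, 1 was higher and 4 were lower (27.8% called, median -0.04). *Mef2c* went from 126 ± 11.5 CPM to 106 ± 6.87 CPM (SD, n = 4 each), a fall of 0.25 on the log2 scale (SE 0.045, edgeR adjusted p = 0.000434). *Bhlhe40*, a repressor of an activity-regulated *Bdnf* start, fell by 0.31 (SE 0.081, edgeR adjusted p = 0.00974). *Nr3c1*, the gene of the glucocorticoid receptor, was at 16.0 ± 0.655 CPM in control and 13.8 ± 0.492 CPM in stress (SD, n = 4 each) and fell by 0.21 (SE 0.057, edgeR adjusted p = 0.0143), a call that DESeq2 did not make (adjusted p = 0.0555). *Nfatc4* rose by 0.17 (SE 0.052, edgeR adjusted p = 0.0297), again not by DESeq2 (adjusted p = 0.111), and *Mef2a* (Log2FC -0.10) was the fourth gene that fell. *Creb1*, the gene of CREB, named after its value was seen, was not called (Log2FC 0.04). Counting each gene of the 7 lists once and leaving out the 8 genes themselves, 27 of 151 tested genes were called (17.9%, against 13.8% of all genes tested), 3 higher and 24 lower (6.49% and 7.27% over all genes). With the 8 genes included, 30 genes of the lists were called, and 17 with DESeq2, 16 without stress M29, 18 without control M30 and 19 without control F37.

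**Figure D5:**
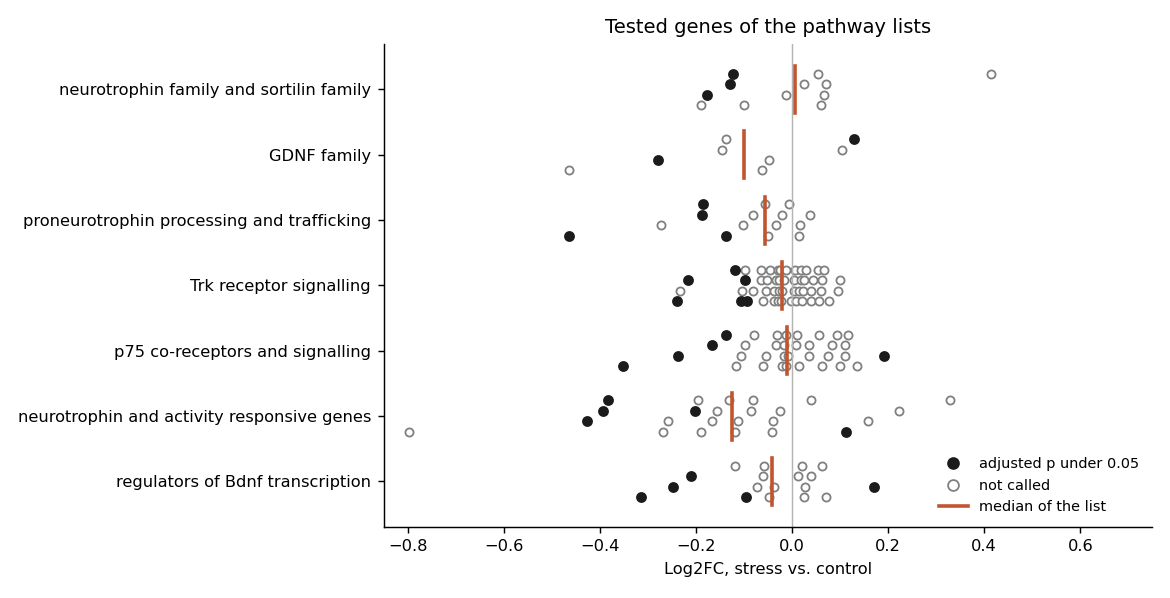
Log2FC, stress vs. control, of each tested gene (points) in the 7 pathway lists, with filled points for called genes and an orange bar at the median of each list. Filled points to the left of 0 outnumber those to the right in every list except the GDNF family, and the median of the responsive genes (-0.12) is farthest from 0.

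Some markers of neurons were lower and some markers of their progenitors were higher in the stressed brains. Over all genes tested, 6.49% were called as higher and 7.27% as lower. Of 11 neuron markers, 0 were higher and 5 lower (3 by DESeq2, median Log2FC -0.07), and their summed level was 7773 to 8020 CPM in control and 7608 to 7949 CPM in stress. Of 10 radial glia markers, 6 were higher and 0 lower (5 by DESeq2, median 0.12). Named after their values were seen, the 6 were *Sox2*, *Pax6*, *Vim*, *Nes*, *Mki67* and *Top2a*. The other radial glia markers, *Hes1*, *Hes5*, *Fabp7* and *Slc1a3*, were not called. The sums of all 10 were 1837 to 1959 CPM in control and 1909 to 2078 CPM in stress, which overlapped. Of 5 markers of intermediate progenitors, 4 were higher and 0 lower (3 by DESeq2, median 0.24). Their sums did not overlap, at 310.7 to 336.9 CPM in control and 344.0 to 383.7 CPM in stress. The neuron sums of the groups overlapped. Markers of oligodendrocyte precursors, cells that also express *Ntrk2*, had 2 of 5 lower, at sums of 116.6 to 129.1 CPM in control and 104.0 to 109.4 CPM in stress. Of 6 markers of astrocytes and glioblasts, a further source of *Ntrk2*, 2 were lower, *Aqp4* (Log2FC -0.61) and *Gfap* (-0.76), of which DESeq2 called only *Aqp4* (*Gfap* adjusted p = 0.106) and *Gfap* was called in 2 of the 8 fits that leave out a brain, at sums of 321.3 to 338.9 CPM in control and 308.4 to 321.3 CPM in stress. The part of these cells in the fall of *Ntrk2* and *Ntrk3* was not tested.

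The tested genes most like each called gene over the 8 brains were named by the smallest root mean square difference in centred log2 CPM. For *Ntrk2* these were *Akap7* (0.025), *Zfp704* (0.025) and *Prkce* (0.026), which were lower in stress with Log2FC of -0.19, -0.15 and -0.17. For *Ntrk3* they were *Slc36a1* (0.019), *4933439C10Rik* (0.022) and *Kcnc1* (0.022), and for *Gfra1*, *Top1mt* (0.033), *Cep57* (0.035) and *Rogdi* (0.035). The 8 points share the 2 groups, so a gene that differs between the groups is alike in part for that reason alone. Ranked by Pearson correlation instead, 0, 1 and 0 of the 3 genes named for *Ntrk2*, *Ntrk3* and *Gfra1* were again among the first 3.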

How the data were processed

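RNA of fetal brain was captured with oligo(dT) and sequenced by the authors as paired reads of 100 bases. After trimming with Trim Galore, reads were aligned to mm10 by TopHat2 2.1.1, and the authors assigned read pairs to exons of GENCODE genes with featureCounts 1.6.3, whose stated options set nothing for strand or for reads with several places. The deposited values are raw counts per gene, with no normalization.

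Genes were kept by edgeR's filterByExpr (minimum count 10, by group), scaled by TMM and put through glmQLFit and glmQLFTest (R 4.3.3, edgeR 4.0.16) with sex and condition, and with a sex by condition interaction. No batch is named for these 8 libraries, so the batch term of the study's model was left out. SE is the size of the Log2FC divided by the square root of F. FPKM used TMM-scaled CPM and the merged exon length of the files. Log2 CPM had a prior count of 2. Groups came from the sample labels, and litters from the study's sample list. The edgeR test of stress was also run on simulated counts, with planted differences larger than the Log2FC of any of the 8 genes over all brains. That run therefore gives no measure of how well differences of their size are found.

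The 8 genes, the gene lists and the markers were chosen with earlier results of these data known. Named were the 8 genes, all genes of their families, at most 3 called genes per direction of each other list, and the 3 genes most like each called one. Other genes are said to be named after their values were seen or complete a count of 5 or fewer. Alternatives were DESeq2 1.42.0, median-of-ratios and upper-quartile scaling, no filter and a mean of at least 50 counts, no sex covariate, each brain left out in turn, CPM without TMM, TPM, Pearson likeness and, added later, another gene length. Some genes of the lists are not reported here. Protein sequence was not used here.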

Additional observations from a re-analysis of the deposited data

How the results depend on the processing

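*Ntrk2*, *Ret* and *Vgf* kept their direction and their call in all 14 alternatives. *Bdnf* and *Sort1* kept their direction and remained not called in all 14. With each brain left out in turn, 1590 to 2365 genes were called in place of 2458, 1 to 3 of the 8 genes in place of 3, and 16 to 28 genes of the lists in place of 30, the lowest numbers without stress M29, and the list count was also 19 without control F37 and 18 without control M30. The list count was 17 with DESeq2, and genes called as higher in stress were 748 with DESeq2 in place of 1160. Signs turned only for genes that were not called, *Ntf3* without stress F34 (0.0094, range with each brain left out -0.36 to 0.0094), *Gdnf* without control M31 (0.25) and without stress M28 (0.12, range -0.24 to 0.25), and *Ngfr* without stress M28 (-0.013, range -0.013 to 0.11), and the cause was not tested. At 9 to 24 counts for *Gdnf* and 30 to 62 for *Ntf3*, differences of the size seen for the Trk receptors were not detectable. Leaving out a brain of a group of 4 also lowers the number of samples in the fit. No paired analysis was possible because the groups share no replicate number.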

Other observations

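Other cell types of the brain and its coverings, and the brain regions, were measured with marker lists. Their part in the values of the 8 genes was not tested. The shares over all genes tested were 6.49% called as higher and 7.27% as lower. Of 6 endothelial markers, 0 were higher and 3 lower in stress (2 by DESeq2), with *Slco1c1* (Log2FC -0.55) and *Kdr* (-0.29) farthest from 0. Of 5 pericyte markers and 7 microglia markers, 0 were called by edgeR or DESeq2, with 1 and 0 at an unadjusted p under 0.05. Of 5 choroid plexus markers, 3 were higher and 0 lower (1 called by DESeq2), and the transthyretin gene *Ttr* was uneven, at 29.9 CPM in stress F34 and 0.656 CPM in stress M29. Of 8 erythroid markers, the embryonic globins *Hba-x* and *Hbb-y* were higher and *Hbb-bs* was lower. By region, 5 of 8 forebrain markers were higher and 1 lower. For the midbrain, 2 of 7 markers were higher (1 by DESeq2), with *Tal2* at 0.75. Of 8 hindbrain markers and the 2 tested skeletal muscle markers, 0 were called by edgeR or DESeq2 or reached an unadjusted p under 0.05.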
